A study of Bos taurus with 15 samples.

Results

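The main block of the major histocompatibility complex (MHC) of cattle was taken as the stretch chr23:25000000-29000000 of the bovine assembly UMD3.1, 4 Mb of chromosome 23. It held 45223 of the 27136487 cytosine positions that were read in at least 1 animal, and the rest of chromosome 23 held 680902. The block was divided into 200 bins of 20 kb. In the mammary gland 193 bins had at least 20 positions covered in at least 1 animal, and in liver 150 bins did. All of these 150 bins were also among the 193. The members were set by position, with no threshold on a methylation value, but the stretch was picked with earlier results of these data known and because it holds AGER, a gene that the study names.

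The MHC, called BoLA in cattle, is gene-dense and encodes the proteins which present peptides to T cells. Class II molecules sit on professional antigen-presenting cells and class I molecules on nearly all nucleated cells, while the class III genes between them encode complement components, tumour necrosis factor and other proteins of inflammation. Methylation of cytosines in CpG dinucleotides is generally high along mammalian chromosomes and low in the CpG-dense promoters of active genes, so a gene-dense block usually alternates between both states. In the gene order of the RefSeq annotation of another assembly (ARS-UCD2.0), the class II genes BOLA-DQA2, BOLA-DQB, BOLA-DRB3 and BOLA-DRA, whose products form the chains of class II molecules, precede NOTCH4, a receptor of the Notch family, PBX2, a homeobox transcription factor, and AGER, which encodes the receptor for advanced glycation end products. The class III genes CYP21A2 (a steroid hydroxylase), C4A, CFB and C2 (complement), HSPA1A (a heat shock protein), TNF and LTA follow AGER, and the class I genes BOLA-NC1, JSP.1 and BOLA lie beyond them. Gene positions in UMD3.1 were not used here, so bins are named by their coordinates and no gene is assigned to a bin except where the study itself places one. Whether the rest of the chromosome holds further MHC genes was not examined.

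Reduced representation bisulfite sequencing, which uses restriction enzymes to enrich CpG-rich parts of the genome, was carried out on Holstein cattle. Their dams were heat stressed or cooled for the last 6 to 7 weeks of gestation. Liver was taken at birth from in utero cooled (IUCL-B, n = 5) and in utero heat stressed (IUHT-B, n = 4) bull calves. The study had left out an IUHT-B calf whose reads did not align. Its calves were born in different years, which the labels do not give by calf, so birth year could not be taken into account. Mammary gland was biopsied on day 21 of the first lactation in in utero cooled (IUCL-H, n = 3) and in utero heat stressed (IUHT-H, n = 3) heifers, so tissue cannot be told apart from age, sex and physiological state. Both tissues were sampled whole, and a change in methylation cannot be told apart from a change in the mixture of cell types.

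Depth differed between the tissues and has to be read beside every value. Heifer libraries covered 11927 to 16591 positions of the block with 19558 to 30666 calls, 1.64 to 1.85 calls per position. Calf libraries covered only 544 to 11178 positions with 20563 to 71956 calls, 5.87 to 59.6 calls per position. The fewest positions were read in IUHT-B calf 5 and the most in IUCL-B calves 4 and 5, whose libraries stand apart by their width. Values by calls without these calves are given where they change a result. The positions covered in liver also followed the groups. Pairs of IUHT-B calves had 33.6% to 68.8% of the block positions of the smaller library in common, and pairs of IUCL-B calves 1, 2 and 3 had 39% to 61.6%. A pair made of 1 calf from each of these sets had only 12% to 17.3% in common. A liver difference between the groups therefore cannot be told apart from a difference in which fragments were read. For the whole block and for its second megabase, values at positions read in both groups are given beside the main ones.

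Within the block, coverage was uneven. Heifers had 6102 to 8525 covered positions between 27 and 28 Mb and 3545 to 4962 between 28 and 29 Mb, but 1438 to 2122 between 25 and 26 Mb and 842 to 1245 between 26 and 27 Mb. The second megabase was the poorest in calves too, with 52 to 720 positions, although the first held as few as 51. The block was covered more thinly than the rest of the chromosome in 6 of 6 heifers (2.98 to 4.15 against 4.05 to 5.33 positions per kb) and in 9 of 9 calves (0.136 to 2.79 against 0.146 to 3.1). Of the 1 kb windows of the block 17% had no position covered in any heifer, and 8.19% of those in the rest of the chromosome.

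Methylation of the block, the percent of methylated calls, was lower than that of the rest of chromosome 23 in every animal. Heifers had block levels of 69.7%, 70.3% and 64.4% in IUCL-H heifers 1 to 3 and 64.4%, 68.4% and 66.8% in IUHT-H heifers 1 to 3. The rest of the chromosome had 78.5%, 78.5% and 75.7% and then 74.3%, 78.3% and 76.4% in the same heifers. The block was lower in 6 of 6 heifers, and the highest block level lay under the lowest level of the rest. The mean difference was -9.63 ± 1.05 percentage points (SD, n = 6; two-sided exact permutation test by sign flips, p = 0.0312, the smallest that 6 animals allow). In liver the block had levels of 65.4%, 64.1%, 69.5%, 65.2% and 62.4% in IUCL-B calves 1 to 5 and 67.8%, 75.7%, 77.2% and 56% in IUHT-B calves 2 to 5. The rest of the chromosome lay between 75.7% and 82.3% in the calves. The block was lower in 9 of 9 calves, by little in IUHT-B calves 3 and 4 (-2.08 and -2.73 points) and by most in IUHT-B calf 5 (-26.2 points). The place of that calf depended on the weighting. With every position weighted alike its gap was -7.21 points, and the largest was -13.3 points in IUCL-B calf 4. The mean difference was -11.8 ± 7.08 points (SD, n = 9; exact sign-flip permutation p = 0.00391, the smallest that 9 animals allow, or 0.00781 after adjustment for the pair of tissues). The width of the Wilson 95% confidence interval of a block level was 0.7 to 1.34 points, far below the spread between calves, and covers counting error only.

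**Figure D1:**
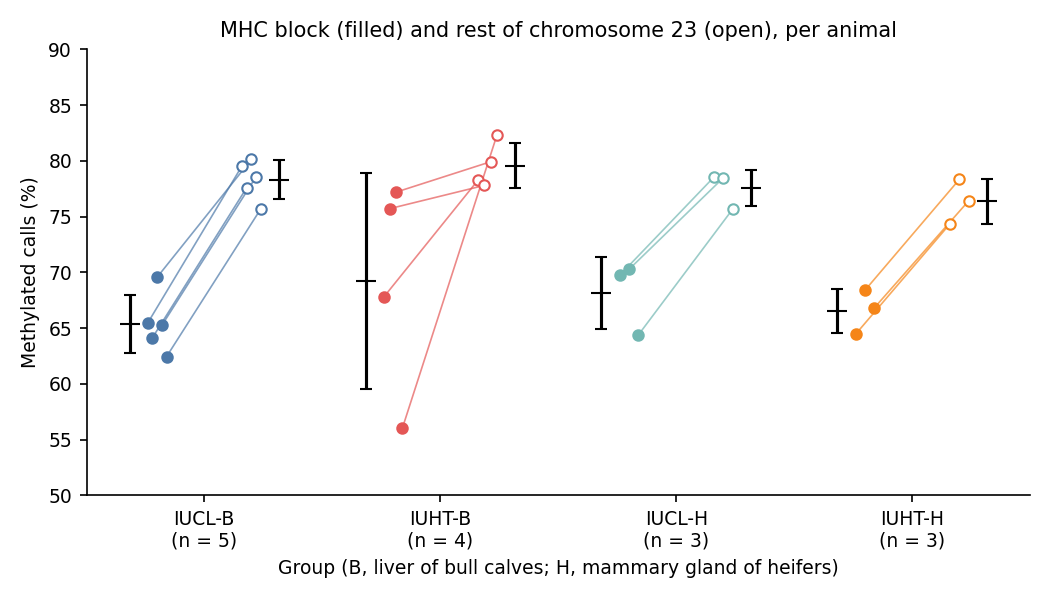
Percent of methylated calls in the MHC block (filled circles) and in the rest of chromosome 23 (open circles) of each animal, joined by a line, by group. Black bars give the group mean and SD; all 15 lines rise from the block to the rest, and IUHT-B calf 5 has the lowest block level, 56%.

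The difference was smaller against the other autosomes, at -7.37 points in the mammary gland and -11.2 points in liver, and remained past the threshold in both. Low methylation was not particular to the block. The 3 megabases before it had 61%, 59.7% and 61% in heifers, below each of its own 4 megabases, and 75.8%, 61.8% and 76.4% in calves. The 3 megabases that follow it had 56.8%, 45.7% and 49.7% in heifers and 62.9%, 47.5% and 60.1% in calves, and when these were left out of the rest of the chromosome the differences were -10.2 and -12.4 points. Deep positions of heifers did not show the difference. With more than 10 reads it was 0.342 points (exact permutation test, p = 0.969), over few block positions. Of the 13 block positions of that depth that every heifer shared, 11 belonged to a cluster close to AGER. The same minimum applied to the rest of the chromosome, and the level of either part at that depth is not given. In calves the difference was -11.8 points at that depth, and the block levels of the tissues differed by -0.0347 points (mammary minus liver).

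The 4 megabases of the block differed in level. In heifers the means were 71.6% ± 3.81, 67.4% ± 2.28, 68.1% ± 2.5 and 64% ± 2.43 (SD, n = 6) from the first to the last megabase, which ranked 17, 12, 13 and 8 from the lowest of the 53 megabases of the chromosome. In calves they were 74.7% ± 6.65, 78.2% ± 8.87, 66.8% ± 6.64 and 62.2% ± 14.2 (SD, n = 9), with ranks 14, 24, 7 and 5. The last megabase had the lowest mean in both tissues, in liver with IUHT-B calf 5 at 27.5%. In IUCL-B calves the third and the last megabase both had a mean of 63.2%. In liver the first 2 megabases stood near 75% or above and the last 2 well below, whereas the 4 megabases of heifers lay within a narrower range.

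**Figure D2:**
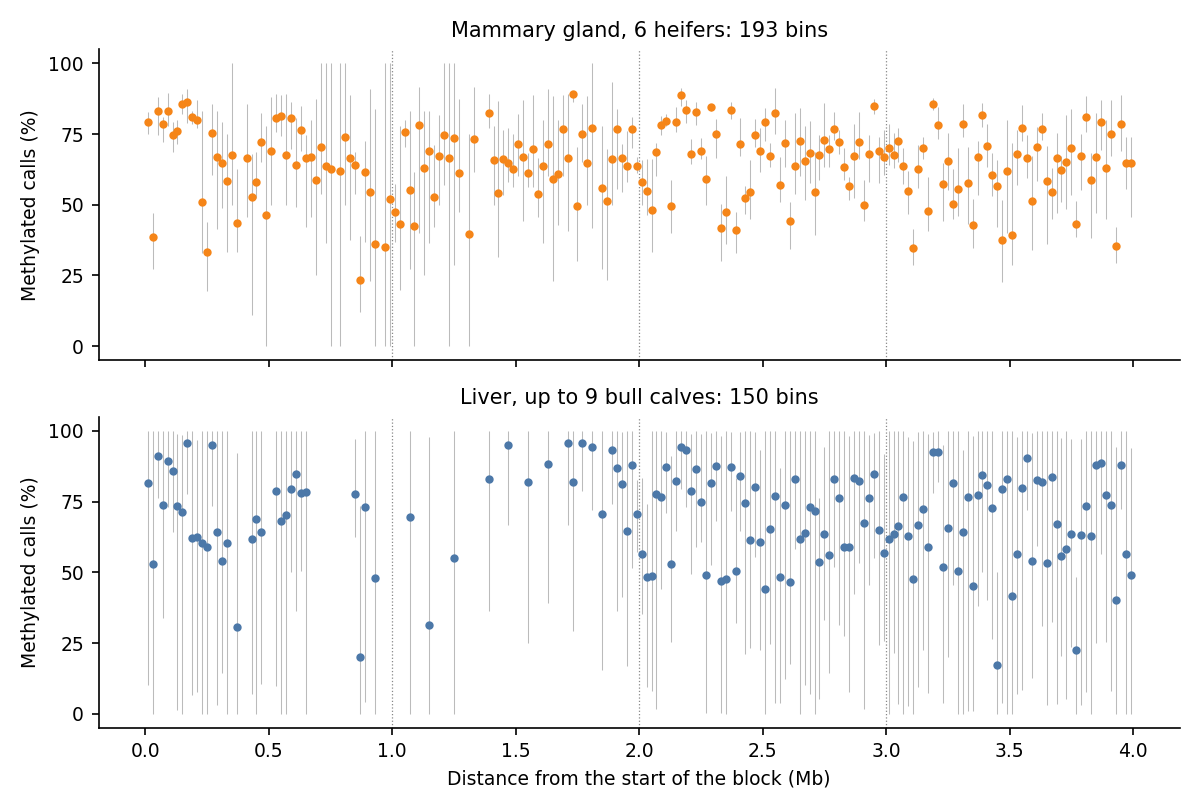
Mean percent of methylated calls of each 20 kb bin with at least 20 covered positions along the block, in heifers (193 bins) and calves (150 bins). Grey bars run from the lowest to the highest animal and dotted lines part the 4 megabases. The bars are wider in liver, and the bins missing in liver lie mostly to either side of the border between the first and the second megabase.

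The level of single bins ranged widely. In heifers the median bin of the block had 66.6% (quartiles 57.2% and 74.5%), against 77.6% in the 2426 bins of the rest of chromosome 23. Bins over 80% made up 10.9% of the block and 39.7% of the rest, and bins under 50% made up 13.5% and 6.31%. In calves the median was 72% in the block and 81.6% in the rest, with 31.3% and 54.2% of bins over 80% and 12.7% and 5.88% under 50%. The block therefore held fewer highly methylated bins and a larger share of bins of low level in both tissues. Over the 147 bins with at least 5 positions in every heifer and at least 20 in each tissue, the liver and mammary means had a Pearson correlation of 0.63 and a Spearman correlation of 0.598, a description across bins that are not independent and share their base composition.

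The lowest bins of the mammary gland were chr23:25860000-25879999, chr23:25240000-25259999 and chr23:28100000-28119999. Their levels were 23.5% ± 9.88, 33.4% ± 8.82 and 34.6% ± 5.45 (SD, n = 6). The bin chr23:25240000-25259999 holds the only window of the first megabase that was unmethylated in every heifer, as described with the 1 kb windows. In chr23:25860000-25879999 the heifers had 12%, 39.1% and 16.7% (IUCL-H) and 18.2%, 25.6% and 29.2% (IUHT-H), from 23 to 43 calls each. In chr23:28100000-28119999, with 175 to 363 calls, they had 41.3%, 40% and 30% and then 30.9%, 28.7% and 36.8%. The treatment groups overlapped in both of the last-named bins. The highest bins were chr23:26720000-26739999 with 89.1% ± 1.55, chr23:27160000-27179999 with 88.8% ± 2.24 and chr23:25160000-25179999 with 86.4% ± 4.35 (SD, n = 6).

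In liver the bin chr23:25160000-25179999 was also among the highest, with 95.6% ± 7.86 (SD, n = 9). Its calves had 99.9%, 99.8%, 87.8%, 77.6% and 96.1% (IUCL-B) and 99.4%, 100%, 100% and 100% (IUHT-B), the last from 2 calls. The other high liver bins were chr23:26700000-26719999 with 95.8% ± 11.8 (SD, n = 8) and chr23:26760000-26779999 with 95.8% ± 9.47 (SD, n = 5), where some calves had no more than 3 calls. The lowest liver bins were chr23:28440000-28459999 with 17.2% ± 22.6 (SD, n = 7), chr23:25860000-25879999 with 20.1% ± 35.7 (SD, n = 4) and chr23:28760000-28779999 with 22.6% ± 19.4 (SD, n = 8). The bin chr23:25860000-25879999 was thus among the lowest of both tissues, but its liver value rests on 4 calves with 0%, 7.14%, 73.4% and 0%, and only 28, 14, 79 and 3 calls.

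Each position was then placed in a state, unmethylated at 20% or less, methylated at 80% or more and intermediate between these, where it had at least 5 reads. In heifers 12.5% ± 2.47 (SD, n = 6) of block positions were unmethylated, against 5.39% ± 1.69 in the rest of the chromosome, and 25.2% ± 2.67 against 18.7% ± 1.41 were intermediate. Methylated positions made up 62.3% ± 3.18 and 76% ± 2.81. In calves 30.1% ± 3.64 (SD, n = 9) were unmethylated in the block and 20.2% ± 1 in the rest, and 68.1% ± 4.52 and 78.6% ± 1.91 were methylated. Intermediate positions were rare in liver, at 1.82% ± 1.25 and 1.15% ± 1.04. Several reads of a position can stem from the same molecule, so a state need not be that of the whole tissue. The share of unmethylated positions was higher in the block in 9 of 9 calves and 6 of 6 heifers, by 9.84 ± 3.06 and 7.15 ± 1.82 points (exact permutation tests by sign flips, p = 0.00391 and p = 0.0312, again the smallest possible). The heifer shares rest on 276 to 653 positions of the block.

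Windows of 1 kb were read in the same way. Among windows with at least 10 positions covered in heifers and at least 10 calls in each, 31 of 342 in the block (9.06%) were under 20% in every heifer, against 159 of 5839 in the rest of the chromosome (2.72%). The first megabase held 1 of its 27 such windows, the second 0 of 15, the third 17 of 214 (7.94%) and the last 13 of 86 (15.1%). They formed 27 runs of at most 2 windows, but most neighbouring windows had too few positions or calls to be read, so the length of an unmethylated stretch cannot be given. Windows over 80% in every heifer made up 23.4% in the block and 33.5% in the rest. Neighbouring windows are not independent, so the shares are given as a description.

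The same windows were mostly unmethylated in liver. Of the 31 windows 23 had at least 10 calls in at least 3 calves, and the mean level of these calves was under 20% in 20 of them and under 50% in all 23, with a median of 4.27%. The liver share for windows of the rest of the chromosome that were chosen in the same way is not given. The likeness of the tissues is therefore not shown to be particular to the block. In chr23:27345000-27345999, which had 117 positions, heifers had 3.15% ± 2.68 (SD, n = 6) and 6 calves 2.15% ± 3.59 (SD). In chr23:28140000-28140999 the values were 2.06% ± 1.97 (SD, n = 6) and 2.63% ± 5.26 (SD, 4 calves). In chr23:27968000-27968999 heifers had 6.15% ± 7.48 (SD, n = 6) and all 6 calves 0%. The exceptions were chr23:28225000-28225999, where heifers had 8.23% ± 3.1 (SD, n = 6) and 5 calves ranged from 0% to 100%, chr23:28156000-28156999 with 23% ± 20.8 in 3 calves and chr23:28922000-28922999 with 20.7% ± 20.6 in 5 calves. These 6 windows were chosen after their values were seen.

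**Figure D3:**
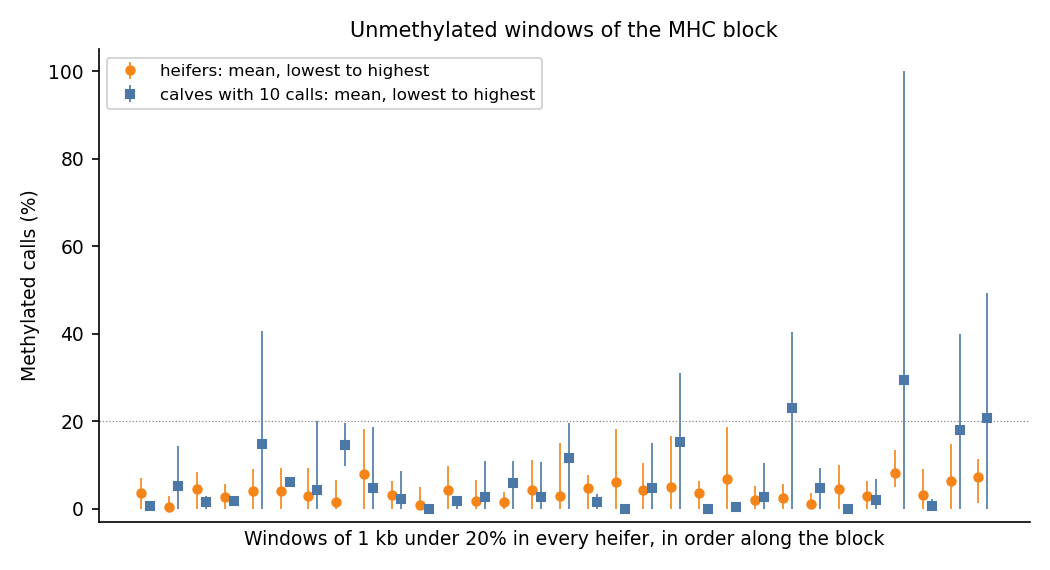
The 31 windows of 1 kb in the block that were under 20% in every heifer, in their order along the block. Circles give the mean of 6 heifers and squares the mean of the calves with at least 10 calls, each with a line from the lowest to the highest animal; the dotted line marks 20%. Most squares lie as low as the circles, and the line of 1 window reaches 100%.

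The block was then compared with the rest of the chromosome in windows of like CpG coverage, and was lower past the test in 6 of 8 comparisons. In 1 kb windows with at least 20 positions covered in heifers, the block had 65.2% ± 3.17 and the rest of the chromosome 77.2% ± 2.05 in heifers (SD, n = 6), and 62% ± 7.58 against 77.4% ± 2.99 in calves (SD, n = 9). The differences were -12 ± 1.32 and -15.3 ± 7.79 points, lower in 6 of 6 and 9 of 9 animals (exact permutation tests, p = 0.0312 and p = 0.00391). With 10 to 19 positions they were -7.02 and -8.71 points, lower in 6 of 6 heifers and 7 of 9 calves. With 5 to 9 positions the heifers showed no such difference (0.62 ± 3.68 points, lower in 3 of 6; exact p = 0.906), whereas calves had -5.34 ± 3.35 points (lower in 9 of 9). With 1 to 4 positions the difference was -8.67 ± 2.56 points in heifers and -2.12 ± 10.8 points in calves (lower in 6 of 9; exact p = 0.547). The gap was thus largest in the densest windows in both tissues. These p-values are not adjusted over the 8 comparisons.

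The tissues were then compared with each other. The mean block level was 67.3% ± 2.56 in heifers (SD, n = 6) and 67.1% ± 6.53 in calves (SD, n = 9), a difference of 0.284 points (mammary minus liver; two-sided exact permutation test, p = 0.928). The gap between the block and the rest of the chromosome was 2.18 points smaller in heifers than in calves (exact permutation test, p = 0.5), which is within the SD of calves. At positions covered in at least 1 calf and 1 heifer these values were 1.36 and 2.92 points. Neither had a stable sign, as they were -3.02 and -0.888 points with every position weighted alike, and -1.09 and 0.381 points without IUHT-B calf 5. With more than 10 reads the gap differed by 12.2 points (exact p = 0.00539), while the block level differed by -0.0347 points. Heifers had no deficit of the block against the rest of the chromosome at that depth. Of the 31 block bins with at least 5 positions in every animal, 0 passed limma's test between the tissues at an adjusted p of 0.05, while 214 of all 13145 tested bins did (1.63%). These counts were not stable. With every position weighted alike 5 of the 31 passed (15.6% of all bins), leaving out IUHT-B calf 2, 3 or 5 gave 2, 1 and 3 block bins (11.3%, 2.84% and 4.09% of all bins), and leaving out any heifer left 1 bin of the genome and 0 of the block. At an unadjusted p under 0.05 there were 3 of the 31 bins and 2961 of the 13145, and edgeR called 0 and 337.

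The bin that came nearest was chr23:28200000-28219999, where the mammary gland was less methylated than liver. Heifers had 77.8%, 78.5% and 77.5% (IUCL-H) and 73.2%, 77.8% and 84.5% (IUHT-H). Calves had 91.3%, 85.6%, 96.7%, 81.9% and 83% (IUCL-B) and 95.8%, 100%, 100% and 96.8% (IUHT-B). Only IUHT-H heifer 3 reached into the range of the calves, and the means were 78.2% ± 3.61 and 92.4% ± 7.18 (difference -14.1 points; limma, adjusted p = 0.0671). The next largest deficits of the mammary gland were -11.3 points at chr23:25100000-25119999 and -11.2 points at chr23:26960000-26979999 (limma, adjusted p = 0.26 and 0.141). In the other direction the largest differences were 17.5 points at chr23:25200000-25219999, 10 points at chr23:27980000-27999999 and 8.7 points at chr23:27560000-27579999 (limma, adjusted p = 0.571, 0.738 and 0.666). There the heifers lay close together and the calves did not. At chr23:25200000-25219999 heifers had 77.2% to 87.1%, whereas IUCL-B calf 2 had 15.5% and IUHT-B calf 5 had 7.75%, and the other calves 43.8% to 96.7%. Over the 31 bins the median difference was -3.68 points, and -3.2 points over all tested bins. On the log2 ratio of methylated to unmethylated calls, which limma tested, these medians were -0.815 and -1.19, so their order depended on the scale. No block bin was without overlap between the tissues, whereas 2.03% of all tested bins had every heifer below every calf and 0.137% the reverse.

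Whether heat stress of the dam went with another level of the block was asked within each tissue. In the mammary gland IUCL-H heifers had a mean of 68.1% ± 3.24 (SD, n = 3) and IUHT-H heifers 66.6% ± 1.99 (SD, n = 3), and the groups overlapped. IUHT-H minus IUCL-H was -1.57 points, less than the SD of IUCL-H (exact permutation p = 0.6, where 0.1 is the smallest that 3 against 3 allow). It ranged from -3.44 points without IUCL-H heifer 3 to -0.506 points without IUCL-H heifer 2. In liver the means were 65.4% ± 2.63 in IUCL-B (SD, n = 5) and 69.2% ± 9.68 in IUHT-B (SD, n = 4), 3.82 points apart (exact permutation p = 0.397, or 0.6 after adjustment for the pair of tissues). The IUHT-B calves lay on either side of the IUCL-B calves, as calf 5 was below and calves 3 and 4 above all of them. With every position weighted alike calf 5 had 71% instead, above all IUCL-B calves (61.7% to 68.8%). Single calves decided its size. Without IUHT-B calf 5 the difference was 8.2 points (exact p = 0.0357). Leaving out IUHT-B calf 4 or calf 3 instead gave 1.15 and 1.64 points (exact p = 0.768 and 0.714), and leaving out IUCL-B calves 4 and 5 gave 2.81 points (exact p = 0.743). With every position weighted alike, which limits the share of very deep positions, it was 5.29 points (exact p = 0.0397). The wide libraries of IUCL-B calves 4 and 5 were the lowest there, at 63.2% and 61.7%. IUCL-B calves 1 to 3 had 67.6%, 68.8% and 68.7%, and IUHT-B calf 2 had 68.8%. This weighting was not tested without IUCL-B calves 4 and 5. At positions covered in at least 1 calf of each group, 289 to 1023 per calf and not the same ones in all calves, the treatment difference was 3.36 points by calls (exact p = 0.54). It was 3.87 points with these positions weighted alike (exact p = 0.0317). On that last measure IUCL-B calves had 63.1%, 68.2%, 65.2%, 67% and 66.5% and IUHT-B calves 67.1%, 71.3%, 69.6% and 71.4%, with overlap only between IUHT-B calf 2 and IUCL-B calf 2. The treatment difference was not shown to differ between the tissues (-5.4 points, mammary minus liver; exact permutation test within tissues, p = 0.284), but that call changed with every position weighted alike (-6.83 points, exact p = 0.0333) and without IUHT-B calf 5 (-9.77 points, exact p = 0.0232).

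The test by megabase was added after the data had been seen, and its p-values have to be read as such. The liver groups parted in the second megabase, from 26 to 27 Mb, which ends with the region around AGER. IUCL-B calves 1 to 5 had 74.7%, 72.8%, 75.4%, 72.1% and 68.2% there and IUHT-B calves 2 to 5 had 76.2%, 80%, 87.7% and 96.8%. Every IUHT-B calf lay above every IUCL-B calf, IUHT-B calf 2 only just. The means were 72.6% ± 2.83 (SD, n = 5) and 85.2% ± 9.11 (SD, n = 4), a difference of 12.5 points (exact permutation p = 0.00794, which no split of 9 calves can undercut, or 0.0317 after adjustment for 4 megabases). Of all 1 Mb windows of the genome 2.02% had every IUHT-B calf above every IUCL-B calf. The groups also stood apart when each position had the same weight, by 7.61 points (68.7% to 74.7% against 76.2% to 85.5%), as they did in 6.6% of all 1 Mb windows. In heifers the same megabase had 70.5%, 68.1% and 65.2% in IUCL-H and 64.4%, 67.4% and 68.6% in IUHT-H. The groups of heifers overlapped (-1.15 points, exact permutation p = 0.6). The difference between the tissues was -13.7 points (exact permutation test within tissues, p = 0.00873, adjusted 0.0349). These liver values rest on 52 to 720 positions. In IUHT-B calf 5, 2079 of its 3516 calls came from 5 positions of the bin chr23:26960000-26979999, at 99.9%. At positions covered in at least 1 calf of each group, 18 to 80 per calf, the difference was 17.7 points by calls (exact p = 0.0952), and 11.8 points with each weighted alike (exact p = 0.0556). There IUCL-B calf 3, at 96.1% and 82.6%, overlapped the IUHT-B calves. Without IUCL-B calves 4 and 5 the difference of all calls was 10.9 points (exact p = 0.0857). Without the deep cluster near AGER it was 13.9 points (exact p = 0.0159), but IUCL-B calf 2 had 80.1% and IUHT-B calf 2 had 76.9%, so the groups overlapped.

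In the third megabase the liver difference was 8.11 points (71.3% ± 6.07 against 63.2% ± 4.9; exact permutation test, p = 0.0794, adjusted 0.159), and it was 0.424 points in the first and -2.32 points in the last (exact p = 0.96 and 0.952). In the last megabase IUHT-B calf 5 had 27.5% and the other IUHT-B calves 68%, 72.7% and 75.4%. The heifer differences were -2.33 points in the first, -1.86 in the third and -1.05 in the last megabase (exact p = 0.5, 0.4 and 0.7). In heifers the sign was negative in all 4 megabases, and none of these differences exceeded the spread between animals. The rest of the chromosome was also lower in IUHT-H (76.4%) than in IUCL-H (77.6%), and the whole block lay -9.81 and -9.44 points from it. In calves the rest had 79.6% in IUHT-B and 78.3% in IUCL-B, and the whole block lay -10.4 and -13 points from it.

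**Figure D4:**
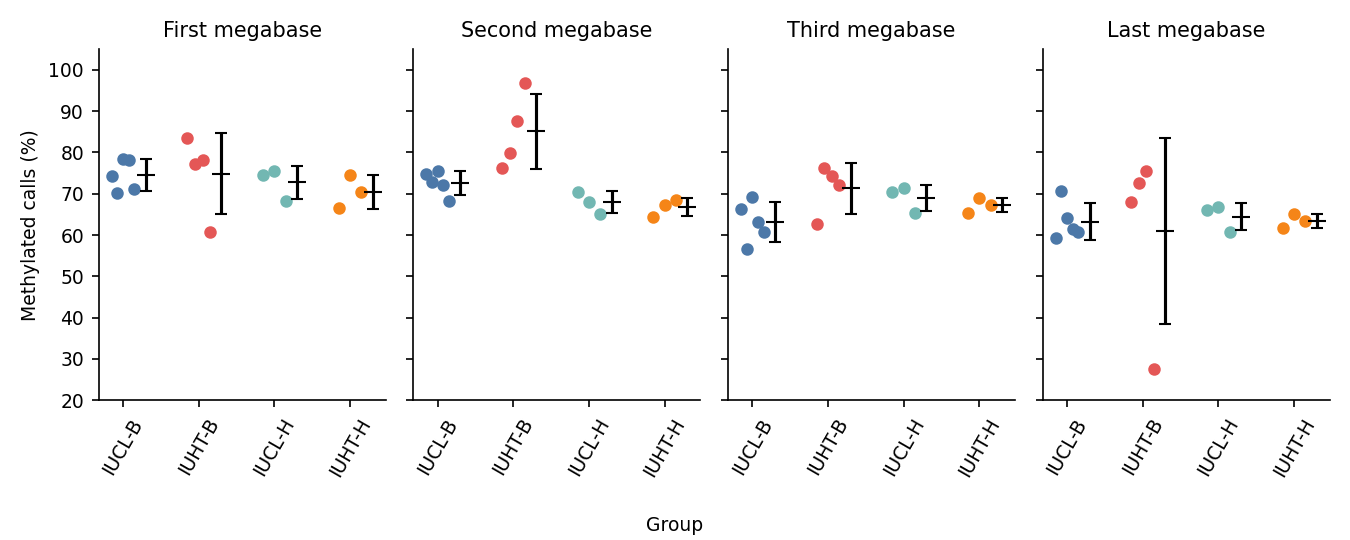
Percent of methylated calls in the 4 megabases of the block for each animal (points), by group, with the group mean and SD (black bars). In the second megabase the IUHT-B calves (76.2% to 96.8%) lie above the IUCL-B calves (68.2% to 75.4%), and in the last megabase 1 IUHT-B calf lies at 27.5%.

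At the scale of 20 kb, 31 block bins could be tested in liver and 167 in the mammary gland. None passed limma's test of treatment at an adjusted p of 0.05 in either tissue (0 of 31 and 0 of 167), and the share over all tested bins was 0% in both, of 13156 bins in liver and 127873 in the mammary gland. Without IUHT-B calf 2, 98 of 13175 liver bins passed (0.744%), and 0 of the 31 in the block. With all animals, there were 4 of 31 and 4 of 167 block bins at an unadjusted p under 0.05, against 1679 and 5872 of all bins, and edgeR called 0 in both. The median treatment difference was 4.88 points over the block bins of liver and 1.85 over all bins. In the mammary gland it was -1.82 and 0.00655 points. On the log2 ratio of methylated to unmethylated calls, which limma tested, the medians were 0.583 and 0.778 in liver and -0.124 and 0.00365 in the mammary gland. The order in liver thus depended on the scale.

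Groups without overlap were found at 1 liver bin. In chr23:28120000-28139999 IUHT-B calves had 84.8%, 99.8%, 98% and 91.7% and IUCL-B calves 37.2%, 70.6%, 9.46%, 58.3% and 51%. The means were 93.6% ± 6.83 (SD, n = 4) and 45.3% ± 23.4 (SD, n = 5), a difference of 48.3 points (limma, adjusted p = 0.2). The IUHT-B calves were read at 7 to 39 positions, and calf 5 with 12 calls. Of all liver bins 3.78% had every IUHT-B calf above and 0.935% every IUHT-B calf below the IUCL-B calves, so 1 and 0 of 31 are close to the background. This bin adjoins chr23:28100000-28119999, one of the lowest bins of the mammary gland, and holds none of the windows unmethylated in every heifer.

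Among heifers, 7 block bins had every IUHT-H heifer above and 9 every IUHT-H heifer below the IUCL-H heifers. Over all tested bins the shares were 4.99% and 4.11%, so 7 and 9 of 167 are also near the background. The largest deficits of IUHT-H among them lay in the first megabase. In chr23:25500000-25519999 IUHT-H heifers had 55.6%, 66.7% and 50% and IUCL-H heifers 88.2%, 79.3% and 75% (difference -23.4 points). In chr23:25560000-25579999 they had 56.7%, 63% and 50% against 72.7%, 89.3% and 74.3% (-22.2 points). The bins that lie between these had means of 80.6% and 81.3%, with no heifer under 74.2%, so the deficit did not run through the stretch. In chr23:25300000-25319999 the difference was -15.1 points. The largest excesses were 14.5 points at chr23:28880000-28899999, 11.1 points at chr23:26460000-26479999 and 8.79 points at chr23:27720000-27739999. All 6 had an adjusted p of 1 (limma), and chr23:25500000-25519999 rests on 9 to 29 calls per heifer.

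A cluster of deep sites lay at chr23:26989353-26989579, where the study places sites upstream of AGER and PBX2. These neighbouring genes encode a receptor of innate immunity and a transcription factor. Of the 13 block sites with more than 10 reads in every heifer 11 lay in these 227 bases, and the other 2 at positions 26733394 and 26733406. The cluster took 2.13% to 7.02% of all block calls of a heifer, with a median of 18 to 43.5 reads per position where the median of the block was 1. Its level was 61.9% ± 2.3 (SD, n = 6), between 59.5% and 64.8%, so heifers differed little. In liver it had 29 to 1939 calls and a level of 62.7% ± 25 (SD, n = 9). IUCL-B calves had 71.2%, 3.38%, 92.1%, 61.7% and 58% and IUHT-B calves 76.5%, 74.8%, 54% and 72.4%. IUCL-B calf 2 stood far below all others there, from 266 calls at 6 positions, most of them at positions other than the 11 deep sites of heifers.

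Most sites of the cluster were at intermediate levels in heifers. Position 26989353 had 14.5% on average, while position 26989357, a few bases on, had 49.8% and position 26989392 had 82.4%. The pair at 26733394 and 26733406 stood at 90.1% and 90.9%. Adjacent positions, taken as the opposite strands of 1 CpG, differed. Position 26989399 was 20.1 ± 16.6 points higher than 26989398 (SD, n = 6; higher in 6 of 6 heifers), position 26989416 was 15.5 ± 6.51 points higher than 26989415 (6 of 6), and position 26989431 was 5.53 ± 5.56 points higher than 26989430 (5 of 6). At each of the 3 pairs the second position, counted along the chromosome, thus had the higher mean.

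**Figure D5:**
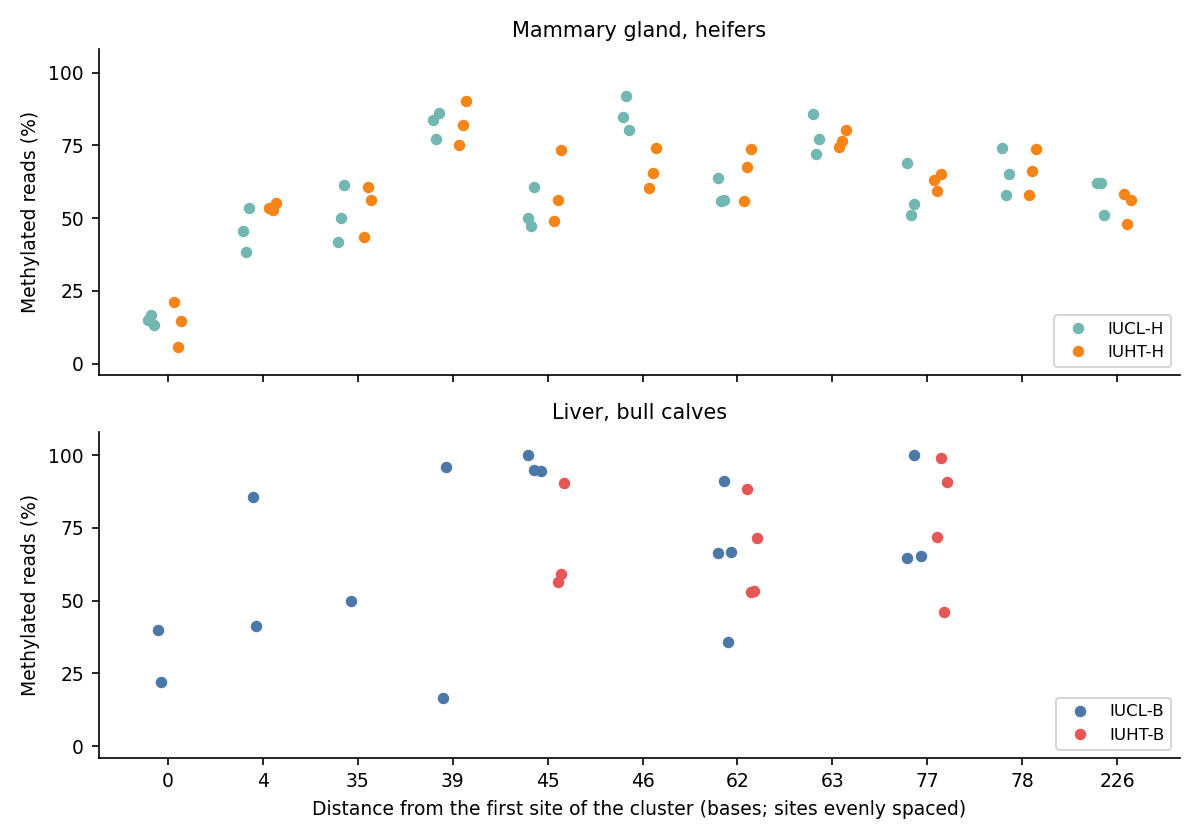
Percent of methylated reads at the 11 deep sites of the cluster, for each heifer (upper panel) and for each calf with more than 10 reads at the site (lower panel), by group. Sites are evenly spaced and labelled with their distance in bases from the first. The heifers of both groups overlap at every site except the sixth, and calves range from under 25% to 100%.

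No block site was called between IUHT-H and IUCL-H by logistic regression with at least 15 points of difference in pooled reads and a q-value of 0.2 or less (0 of 13), where 1.54% of all 18486 tested sites were. With edgeR 0 and with limma 1 of the 18486 were called, none of them in the block. At an unadjusted p under 0.05 there were 1 of the 13 block sites and 2331 of all 18486 by logistic regression, and 1 and 831 by edgeR. The block site was position 26989399. IUCL-H heifers had 84.6%, 92% and 80.3% there (66 of 78, 23 of 25 and 122 of 152 reads) and IUHT-H heifers 60.3%, 65.5% and 74.2% (35 of 58, 19 of 29 and 112 of 151 reads). The groups did not overlap, and their means differed by -18.9 points. The difference of the pooled reads, to which the minimum of 15 points applies, was -13 points (q = 0.0392; edgeR, adjusted p = 0.994). On the opposite strand, at 26989398, the group means differed by 6.87 points in the other direction, and with both strands merged by -5.12 points. The other lower means in IUHT-H, at 26989579, 26989416, 26989353 and 26733394, were -4.13, -1.25, -1 and -0.0545 points. The largest of the higher ones besides 26989398, at 26989357, 26989415, 26989430 and 26989388, were 7.93, 7.31, 4.23 and 2.39 points, and at these sites the groups overlapped.

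In liver 0 block sites had more than 10 reads in every calf, so none was tested, while logistic regression called 33.1% of the 900 sites tested elsewhere. On these 900 sites edgeR called 2 and limma 3. At 3 positions of the cluster most calves were deep enough to give a value. At position 26989398 IUCL-B calves 1, 3 and 5 had 100%, 94.9% and 94.4% (123, 59 and 18 reads) and IUHT-B calves 2, 3 and 4 had 56.5%, 59.1% and 90.5% (214, 22 and 21 reads). All 3 IUCL-B values lay above the IUHT-B values, but IUCL-B calf 4 had 30% in 10 reads. At position 26989415 IUCL-B calves 1, 3, 4 and 5 had 66.3%, 91%, 35.7% and 66.7%, and IUHT-B calves 2 to 5 had 88.3%, 52.8%, 53.2% and 71.4%. At position 26989430 the IUCL-B calves 1, 3 and 5 had 64.8%, 100% and 65.4% and IUHT-B calves 2 to 5 had 71.8%, 98.9%, 46.1% and 90.9%. The groups overlapped widely at the last 2 positions. In IUHT-B calf 3 the pair of positions 15 bases apart had 52.8% of 995 and 98.9% of 920 reads methylated. No test is given, since the study chose these positions in these calves. For liver it reports 3 called sites upstream of AGER, of which 1 was hypermethylated and 2 were hypomethylated in IUHT-B. The study states a minimum of more than 10 reads, but not in how many calves.

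The spread between animals had a larger median over the 20 kb bins of the block than over the other bins of chromosome 23. In heifers the SD of a 20 kb bin had a median of 6.63 points over 167 block bins and 5.38 over 2407 other bins, where counting alone would give 4.65 and 4.24. The median ratio of the observed to the counting SD was 1.44 and 1.24. In bins with at least 200 calls in every heifer the median SD was 3.81 (24 bins) and 2.76 (441 bins), with ratios of 1.74 and 1.59. In calves the median SD was 19.7 over 31 block bins and 15.5 over 389 other bins, where counting would give 2.82 and 2.74. With every position weighted alike these medians were 11.7 and 9.61. Bins are not replicates, so the figures are descriptions. By megabase a wide spread was not particular to the block. In heifers the SD was 2.28 to 3.81 points in its 4 megabases. It was 3.1, 1.81 and 8.71 in the 3 before the block and 5.3, 3.98 and 3.92 in the 3 after it. In calves it was 6.64 to 14.2 in the block, 8.87, 19 and 4.12 before it and 8.01, 8.26 and 14 after it. The counting SD takes reads as independent molecules, and the depth per position differed between the tissues, so the ratios are not comparable between heifers and calves.

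Within the block the median SD of heifers was highest in the thinly covered second megabase, at 11.5 points (33 bins), where counting would give 11.1. It was 7.78 in the first, 5.54 in the third and 6.71 in the last megabase, where counting would give 5.85, 3.09 and 4.7. The 3 bins with the largest SD lay in the first megabase and were poor in reads. In chr23:25960000-25979999 (SD 43.8) the IUCL-H heifers had 0% in 2, 1 and 1 calls, and IUHT-H heifers 100% in 2, 33.3% in 3 and 75.9% in 54 calls. In chr23:25980000-25999999 (SD 38.8, 5 heifers) and chr23:25740000-25759999 (SD 38.4) no heifer had more than 18 calls. Over 167 bins the levels of heifer pairs had correlations of 0.555 to 0.739 across bins.

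Opposite states of single positions were counted as well. At positions with at least 5 reads in both animals of a pair, 0% to 3.49% of block positions (median 1.08%, 15 pairs of heifers) were at 20% or less in 1 heifer and at 80% or more in the other, against 0.283% to 1.07% (median 0.689%) in the rest of the chromosome. The share was higher in the block in 10 of 15 pairs, from 52 to 202 block positions per pair. In liver it was 9.38% to 26.4% in the block (median 18.2%, the 16 of 36 pairs with at least 50 such positions) and 10.1% to 21.9% in the rest (median 16.7%), higher in the block in 7 of 16 pairs. Opposite states between calves were thus frequent in the block and about as frequent elsewhere on the chromosome. Several reads of a position can stem from the same molecule. An opposite state therefore cannot be told apart from the reading of few molecules in each calf.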

How the data were processed

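DNA of liver (9 bull calves) and mammary gland (6 heifers) was cut with MspI and TaqαI, and fragments under 300 bp were bisulfite converted. Adaptors were then joined by a random probing method, so reads need not begin at a fragment end, and 50 bp single ends were read. Per the labels, reads were trimmed with Trim Galore 0.4.4 and mapped with Bismark 0.17.0 to UMD3.1. For each animal the authors deposited a list of cytosine positions, with the percent methylated and the count of reads of either state. Positions with 1 read were listed, and opposite strands of a CpG stood in separate lines.

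A level was the methylated calls as a percent of all calls, over all positions of a region. Exact permutation tests, two-sided and with the animal as the unit, compared these levels. Bins of 20 kb with at least 5 positions in every animal were tested over the whole genome with limma 3.58.1 on log2((methylated + 0.5)/(unmethylated + 0.5)). Within a tissue, logistic regression on treatment was run at sites where each animal had more than 10 reads, with a minimum difference of 15 points and q of 0.2 or less. Benjamini-Hochberg adjustment ran over all tested bins or sites. edgeR 4.0.16 on the counts was an alternative. Wilson 95% intervals cover counting error only, since without molecular identifiers several reads can stem from 1 molecule. The tests of bins and sites were also run on simulated counts. The spread between simulated animals was small for bins and absent for sites. Those runs therefore do not show how the tests behave at the spread seen between these animals.

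The block, the bins and all lists were chosen with earlier results of these data known. Named are, per tissue, the 3 lowest and 3 highest bins and up to 3 bins per direction with the largest treatment difference among those without overlap, the 3 bins per direction with the largest tissue difference, the 3 bins with the largest SD between heifers, and 5 deep sites per direction. Lists of BoLA genes were not used, as an annotation of UMD3.1 was not used here. RefSeq (ARS-UCD2.0) gave gene order only. Heifers are numbered in the order of their records. Each animal gave 1 library.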

Additional observations from a re-analysis of the deposited data

Results flagged for a closer look

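Dixon's ratio, which sets the gap of the highest or lowest calf against the range of its group, was large in 2 of 16 sets of calf values. By chance about 1 in 20 would be. With 3 heifers in a group the ratio was not used for them.

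IUCL-B calf 3 had a block level -10.6 points from that of the rest of the chromosome, nearer than the other IUCL-B calves, which lay between -13.3 and -14.1 points. In the last megabase of the block IUHT-B calf 5 had 27.5% of its 9579 calls methylated, over 170 positions, where the other IUHT-B calves had 68% to 75.4%.

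The treatment difference of the second megabase differed between the tissues by -13.7 points (mammary minus liver; exact permutation test within tissues, p = 0.00873, adjusted over the 4 megabases 0.0349). The libraries of the IUCL-B and IUHT-B calves shared 12% to 17.3% of their block positions (calves 4 and 5 of IUCL-B left out), and values at positions covered in both groups were computed only in liver. This test was added after the data had been seen.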

How the results depend on the processing

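The lower level of the block kept its sign under every alternative run in liver, between -9.58 and -13 points. In the mammary gland it did so under all except the minimum of more than 10 reads (0.342 points). With 5 heifers left, its exact p was 0.0625, the smallest possible, at -9.91 to -9.3 points. Treatment in liver passed 0.05 with every position weighted alike (5.29 points), at positions covered in both groups and weighted alike (3.87 points, chosen after seeing the data, as was the same by calls, 3.36 points) and without IUHT-B calf 5; leaving out single calves gave 1.15 to 8.2 points. The difference of the treatment effects between tissues passed with positions weighted alike (-6.83 points, exact permutation p = 0.0333) and ranged from -9.77 to -2.73 points with 1 animal left out (p = 0.0232 without IUHT-B calf 5). The block against the rest differed between tissues by 12.2 points with more than 10 reads.

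The second megabase in liver, whose test and alternatives were all chosen after seeing the data, gave 8.66 to 15.5 points with 1 calf left out (exact p of 0.0179 to 0.0286), 7.61 points with positions weighted alike and 13.9 points without the deep cluster. It no longer passed at positions covered in both groups (17.7 points, or 11.8 with these weighted alike), without IUCL-B calves 4 and 5 (10.9 points) and with a replicate block (13 points, exact p = 0.125, the smallest possible with 4 pairs). The labels do not say whether the replicate numbers 2 to 5 pair the calves. The deviations of calves with the same number had correlations of -0.0221 to 0.0139 over 420 bins. That check cannot exclude pairing, as the libraries of the groups shared few positions. With the replicate block the liver difference of the whole block was 3.84 points (exact permutation p = 0.5). It called 0 of 31 block bins and 0 of all 13217 bins. No block site could be tested with it, while logistic regression called 295 of the 910 sites tested elsewhere.

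With positions weighted alike limma called 1 of 31 block bins for treatment in liver (2.46% of all bins) and 5 of 31 between tissues (15.6% of all bins), and the median SD of calves was 11.7 points. Leaving out 1 animal gave 0 to 3 block bins between tissues (2, 1 and 3 without IUHT-B calves 2, 3 and 5, where 11.3%, 2.84% and 4.09% of all bins were called). It gave 0 to 1 block sites in heifers. Without IUCL-H heifer 3 this was 1 of 13 block sites and 332 of all 19298. Without IUHT-H heifer 3 it was 1 of 15 and 298 of all 21499. Over the genome, the 214 bins called between tissues fell to 1 without any 1 heifer and rose to 1484 without IUHT-B calf 2. Bins with 200 calls in every heifer had a median SD of 3.81 points. With at least 20 positions in every animal no block bin could be tested in liver or between tissues. The cause of these changes was not tested. Depth limits the liver results by megabase, which rest on as few as 51 positions in IUHT-B calf 5.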
